A study of Mus musculus with 36 samples.

Results

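Clock, Arntl, Npas2, Per2, Per3, Cry1, Cry2, Nr1d1, Nr1d2 and Dbp, genes of the circadian clock, were followed through 8 lists of histone acetylation peaks from the mouse dorsal hippocampus. These 10 genes were chosen by name for their place in the clock out of 21887 protein-coding genes. Peaks that overlapped a gene body widened by 10 kb on each side were assigned to the gene, and the main measure was how many bases within 2 kb of either gene end lay in peaks, called covered bases here. Chromatin immunoprecipitation and sequencing had been done for histone H3 acetylated on lysine 9, H3K9ac, or on lysine 27, H3K27ac, with input chromatin alongside. All mice were males of 8 weeks and all had received a viral vector in the dorsal hippocampus. Mice of the control arm carried a control vector (named Control in the labels), and those of the knockdown arm an AAV2/9 vector, U6.shACSS2.CMV.EGFP, whose short hairpin RNA is directed against Acss2. The labels name no cell type to which the vector was restricted. Within each arm mice were untreated or were given ethanol into the peritoneum at 2 g/kg, as a 20% solution in saline. Together the 36 samples formed 12 groups of 3, namely 24 immunoprecipitated samples and 12 inputs. The time of day at which tissue was taken does not appear in the sources used here.

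The clock is a feedback loop. CLOCK or its relative NPAS2 pairs with ARNTL (also called BMAL1) and switches on target genes through a short DNA element, the E-box. The PER and CRY proteins made from these targets enter the nucleus and block the pair, while the nuclear receptors NR1D1 and NR1D2 (REV-ERB alpha and beta) repress Arntl. DBP, made from another target gene, passes the rhythm to output genes through D-box elements. In the hippocampus this loop is known to cycle over the day, and H3K9ac and H3K27ac mark active promoters, H3K27ac active enhancers as well. ACSS2 makes acetyl-CoA, the acetyl donor for histones, from acetate, and acetate is a product of ethanol. The design asks whether ethanol alters acetylation in the brain and whether ACSS2 is needed for it.

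There was 1 peak list for each mark and condition, so each value below stands for a whole group of 3 mice or samples with no spread between replicates, and no test between conditions could be made. The lists differed in length. H3K9ac lists held 31042 to 42120 peaks over 16.1 to 24.1 Mb, shortest with ethanol in control-vector mice. H3K27ac lists held 86110 to 119317 peaks over 38.1 to 57.4 Mb, longest with ethanol in the knockdown. The read depth behind each list is unknown, and a shorter list and less acetylation cannot be told apart where a gene moves with its list. Fewer acetylated cells and less acetylation per cell cannot be told apart either. Of 8 hippocampal and neuronal genes, 8 had covered bases in 7 of the lists and 7 in the H3K9ac list of ethanol-treated control-vector mice, where Neurod6 had none. Of 8 genes of other tissues, 1 was covered (Apoa1), and 2 in the longest H3K27ac list (Apoa1 and Myh6).

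The promoters of Cry1, Per3 and Nr1d2 carried letters that match motifs used in the loop. Their sequences are shown because the edges of the peaks in them moved between lists. Each is the 250 bases before the transcription start in RefSeq on GRCm38.p6, read 5′ to 3′ on the minus strand, on which all of these genes lie. Capitals mark the E-box (CACGTG) in Cry1, at chr10:85185055-85185304. They mark the D-boxes (TTANGTAA) in Per3, at chr4:151044666-151044915, and the nuclear receptor motif AGGTCA in Nr1d2, at chr14:18239107-18239356.
Cry1: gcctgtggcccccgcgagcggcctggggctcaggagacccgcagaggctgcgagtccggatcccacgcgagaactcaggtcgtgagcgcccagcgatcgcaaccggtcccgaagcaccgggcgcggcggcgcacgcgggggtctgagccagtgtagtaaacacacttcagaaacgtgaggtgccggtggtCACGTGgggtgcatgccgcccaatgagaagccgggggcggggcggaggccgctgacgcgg
Per3: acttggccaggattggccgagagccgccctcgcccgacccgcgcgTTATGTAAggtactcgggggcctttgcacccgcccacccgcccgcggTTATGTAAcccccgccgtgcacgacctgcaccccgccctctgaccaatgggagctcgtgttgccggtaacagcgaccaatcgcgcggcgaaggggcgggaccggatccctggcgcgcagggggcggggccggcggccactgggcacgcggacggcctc
Nr1d2: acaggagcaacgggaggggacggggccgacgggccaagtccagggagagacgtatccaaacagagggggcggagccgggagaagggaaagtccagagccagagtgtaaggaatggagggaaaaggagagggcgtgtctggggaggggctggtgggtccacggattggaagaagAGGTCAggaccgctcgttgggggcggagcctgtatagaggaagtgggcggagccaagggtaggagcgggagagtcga

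The table of promoters matched 9 of the 10 genes, with 12 start sites between them, and had no entry for Per2. Windows of 300 bases, from 250 before to 50 after a start, were searched on both strands. The E-box was found in Cry1 alone among these 9 genes and in 7.15% of 32851 promoter windows. The D-box was found in Per3 alone (2.32% of windows), and AGGTCA in Clock, Arntl and Nr1d2 (16.3%). Counted by start site, as the windows are, the E-box and the D-box were each at 1 of 12 starts and AGGTCA at 3 of 12. TGANGTCA, a cAMP-response-like motif, was in none of the 9 (8.83%). These matches describe letters in a short window and are no measure of binding.

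Peaks covered several of these elements in some lists and not in others. The Cry1 E-box begins 60 bases before the start and lay inside an H3K9ac peak in untreated control-vector mice and in ethanol-treated knockdown mice. It lay outside any H3K9ac peak in the remaining pair of lists, and inside an H3K27ac peak in all 4. The 250 bases printed for Cry1 held 250 H3K9ac-covered bases untreated and 0 with ethanol in control-vector mice, 175 untreated and 219 with ethanol in the knockdown, and 250 H3K27ac-covered bases throughout. In Nr1d2 the motif begins 77 bases before the start. It lay in an H3K9ac peak in untreated knockdown mice and in no other condition, and in an H3K27ac peak in every condition except that one. Of the Per3 D-boxes, 205 and 158 bases before the start, the nearer one was in no peak of any list. The farther one was partly inside an H3K9ac peak in ethanol-treated knockdown mice and outside H3K9ac peaks in every other condition. For H3K27ac it was wholly inside a peak in both ethanol lists. It was partly inside one in untreated knockdown mice and outside in untreated control-vector mice. The AGGTCA motif of Clock lay inside a peak in all 8 lists. That of Arntl lay inside an H3K27ac peak in all 4 lists. For H3K9ac the Arntl motif was inside a peak in untreated control-vector and ethanol-treated knockdown mice. It was partly inside one in ethanol-treated control-vector mice and outside in untreated knockdown mice.

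Covered bases at the gene ends were present for 9 of the 10 genes in all 8 lists. Across the genome 57.5% to 61.3% of protein-coding genes had covered bases for H3K9ac and 63.9% to 66.8% for H3K27ac. The exception was Arntl, whose gene in the table begins far before its listed promoter, so that its windows miss it. The windows come to the same total of 8 kb for each of the 10 genes. They come to less for genes so short that the windows at their ends overlap. The median of the 10 genes was 2014 H3K9ac-covered bp in untreated control-vector mice, 1544 bp with ethanol, and 1819 and 2061 bp without and with ethanol in the knockdown. These medians count Arntl as 0, and the 9 covered clock genes alone had 2108, 1750, 1879 and 2089 bp. Medians of all covered genes, which leave out genes at 0, were 1353, 1096, 1328 and 1391 bp. For H3K27ac the 10 clock genes had medians of 2151, 2008, 2250 and 2607 bp in the same order. The 9 covered ones had 2379, 2064, 2310 and 2618 bp, and all covered genes 1359, 1320, 1428 and 1533 bp.

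The widest coverage was found at Dbp, Nr1d1 and Cry2. In order of their median over the 4 H3K9ac lists came Dbp (3846 bp), Nr1d1 (2699), Cry2 (2600), Clock (2229), Cry1 (1947), Per3 (1835), Npas2 (1678), Per2 (1618), Nr1d2 (1282) and Arntl (0). The order for H3K27ac was Dbp (5530 bp), Nr1d1 (5442), Cry2 (4722), Per2 (2750), Per3 (2344), Clock (2047), Npas2 (1994), Nr1d2 (1856), Cry1 (1562) and Arntl (0). Neighbours in this order overlapped in range, apart from Cry2 and Clock for H3K9ac, Cry2 and Per2 for H3K27ac, and Arntl below the rest. Among covered genes of untreated control-vector mice Dbp stood at percentile 99.6 for H3K9ac and 99.5 for H3K27ac, while Nr1d2 stood at 33.2 and 72.1. All 3 leading genes have another gene close by, so that part of their coverage may belong to Sphk2 or Car11 (Dbp), Thra (Nr1d1) or Mapk8ip1 (Cry2). Dbp and Nr1d1 are also short (5104 and 7446 bp), so the windows take in much of each gene. At its promoter end alone Nr1d1 had 2092, 1413, 1901 and 1699 H3K9ac-covered bp, where that of Clock had 2241, 1929, 2264 and 2217. That of Dbp had 3298, 2607, 3040 and 2932 bp. The order is untreated and ethanol with control vector, then with the knockdown.

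**Figure D1:**
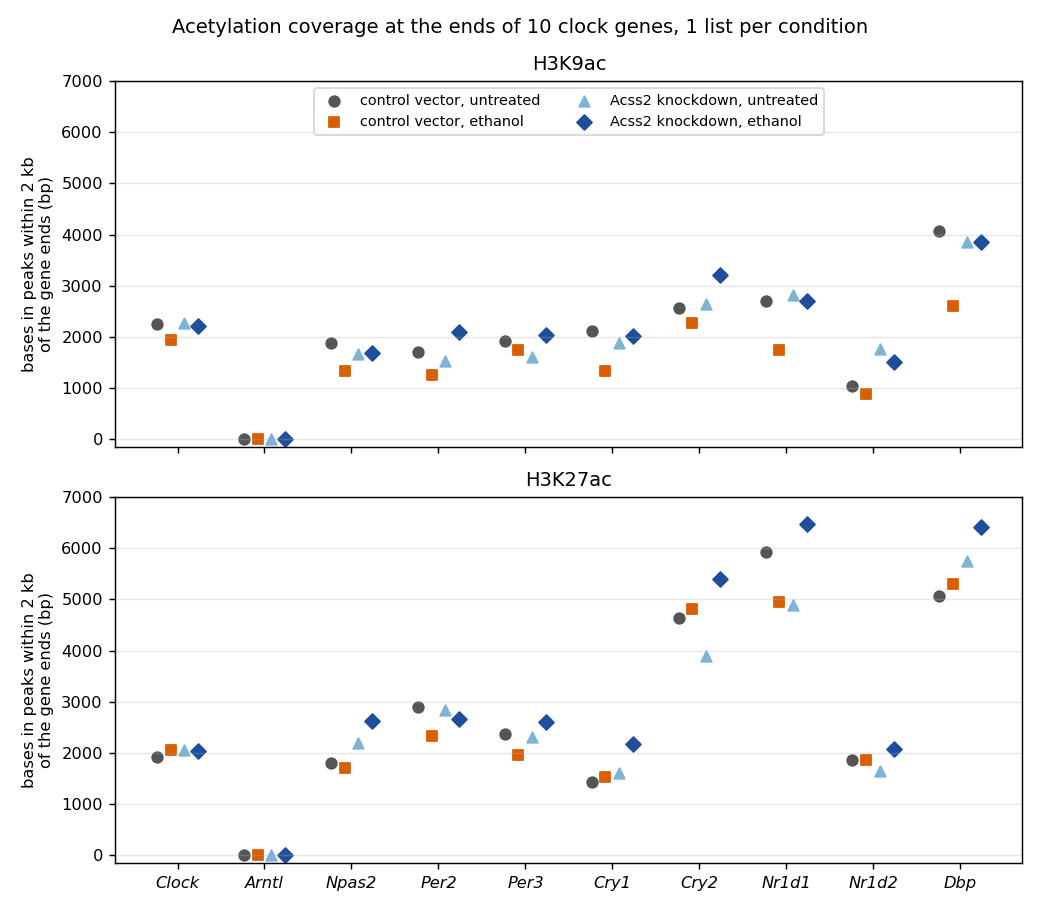
Covered bases near the gene ends (bp, linear axis) for the 10 clock genes, with H3K9ac above and H3K27ac below; each marker is the 1 list of a condition, so there are no error bars. Dbp lies highest for H3K9ac, at 2607 to 4073 bp, the orange squares (control vector with ethanol) are the lowest marker of H3K9ac at 8 of the 9 covered genes, and Arntl is at 0 throughout.

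Of the activators, Clock and Npas2 had their first listed start inside a peak in every list of both marks. Clock (chromosome 5, 76209868 to 76305603, minus strand), the DNA-binding partner of ARNTL, had 2241 H3K9ac-covered bp without and 1929 bp with ethanol in control-vector mice, and 2264 and 2217 bp in the knockdown. H3K27ac covered 1923, 2064, 2049 and 2045 bp in the same order. Clock was thus the steadiest of the covered genes for H3K27ac, with 141 bp between its lowest and highest list, and all of its coverage lay at its promoter end. Npas2 (chromosome 1, 39193702 to 39363240, plus strand), which can stand in for CLOCK in the forebrain, had 1874, 1339, 1667 and 1690 H3K9ac-covered bp and 1798, 1700, 2189 and 2618 H3K27ac-covered bp. Its H3K27ac was widest in ethanol-treated knockdown mice, where 2287 bp lay at the promoter and 331 bp at the other end, which had no covered base in either control-vector list.

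Arntl (chromosome 7, 113178471 to 113314126, plus strand), the shared partner of CLOCK and NPAS2, was measured at its listed starts, 113207465 and 113207511. Within 2 kb of these, H3K9ac covered 1828 bp without and 1756 bp with ethanol in control-vector mice and 1413 and 2093 bp in the knockdown. H3K27ac covered 1658, 1678, 2295 and 1789 bp. The first of these starts lay outside peaks in 7 of the 8 lists, all but H3K27ac with ethanol and control vector. For H3K27ac both knockdown lists lay above both control-vector lists, and for H3K9ac the knockdown lists were the lowest and the highest. Arntl also had a long stretch of H3K27ac inside the gene, most of it within the lncRNA gene Gm33721 (113243592 to 113261734). This stretch was chosen after its peaks were seen. It held 3994 H3K27ac-covered bp in 12 peaks untreated and 3398 bp in 9 peaks with ethanol in control-vector mice, and 6322 bp in 14 peaks and 6677 bp in 14 peaks in the knockdown. Both knockdown lists thus lay above both control-vector lists here, and both are also the longer lists genome-wide. H3K9ac covered 441, 0, 265 and 231 bp of the same 18143 bp. The region from 113249463 to 113251416, 41952 bp after the start, carried H3K27ac in all 4 lists (1365, 1756, 1819 and 1757 bp).

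Per2 and Per3 encode period proteins, which block the activators. Per2 (chromosome 1, 91415977 to 91459351) had 1713 H3K9ac-covered bp without ethanol and 1257 bp with ethanol in control-vector mice, and 1522 and 2089 bp in the knockdown. Most of this lay at its upper end by coordinate (1713, 1049, 1522 and 1827 bp), while its lower end lies 1939 bp from Hes6. H3K27ac covered 2904, 2338, 2844 and 2657 bp, lowest with ethanol in control-vector mice for this mark too. Per3 (chromosome 4, 150997018 to 151044707, minus strand) had 1920, 1750, 1602 and 2033 H3K9ac-covered bp and 2379, 1952, 2310 and 2596 H3K27ac-covered bp, all at its promoter end, which also faces Gm38529. The top H3K27ac peak of Per3 stood at percentile 99.9 by score in the list of ethanol-treated control-vector mice, where its covered width was smallest. The score is the authors' own value for a peak, and the percentile ranks it within its list.

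Cry1 and Cry2 encode the cryptochromes, which hold the activators back together with PER. Cry1 (chromosome 10, 85131700 to 85185054, minus strand) had 2108, 1329, 1879 and 2015 H3K9ac-covered bp, in the order untreated and ethanol with control vector, then untreated and ethanol with the knockdown. In untreated control-vector mice a single H3K9ac peak of 1870 bp (85183953 to 85185822) spanned the start. In ethanol-treated control-vector mice the same stretch held a peak of 762 bp after the start (85184250 to 85185011) and one of 322 bp before it (85185485 to 85185806). The knockdown lists also had a gap at the start, and in no H3K9ac list but the first was the start itself in a peak. H3K27ac peaks covered the Cry1 start in all 4 lists, with 1437, 1522, 1603 and 2174 bp within 2 kb. Cry2 (chromosome 2, 92403646 to 92434085, minus strand) had 2557, 2275, 2642 and 3217 H3K9ac-covered bp and 4635, 4809, 3902 and 5404 H3K27ac-covered bp at its ends. Like Arntl, Cry2 had H3K27ac inside the gene, with a region of 3792 bp (92422508 to 92426299) in all 4 lists, within the lncRNA gene D930015M05Rik. H3K27ac reached far into Cry2 and its flanks, over 34.4%, 35.5%, 38.6% and 42.2% of the locus, in 40 merged regions of which 19 were in all 4 lists. These 19 of 40 are 47.5%, where 27.1% of H3K27ac regions genome-wide were in all 4 lists. Of its 25 H3K9ac regions 4 were in all 4 lists, or 16%, where the genome-wide share was 36.8%. In 1 list were 13, or 52%, where the genome-wide share was 42%. Most of these 25 regions lay inside the gene, where the shares over all protein-coding genes were 14.2% in 4 lists and 62.7% in 1.

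The nuclear receptor genes differed from each other in extent. Nr1d1 (chromosome 11, 98767932 to 98775377, minus strand), which is short and overlaps Thra at its far end, had 2702, 1751, 2808 and 2696 H3K9ac-covered bp and 5930, 4953, 4893 and 6469 H3K27ac-covered bp. Its H3K9ac list of ethanol-treated control-vector mice lay below the other 3, whereas for H3K27ac the untreated knockdown list was lower still. Before its start lie 3 small H3K9ac regions, beginning at 98777125, 98781646 and 98783674, that were absent from that ethanol list alone. They are narrow and low-scoring in the other lists, with scores of 3.87 to 9.83, and all 3 begin within the lncRNA gene Gm31862 (98775411 to 98783728). That ethanol list is the shortest for H3K9ac. Genome-wide, 38% of H3K9ac peaks of untreated control-vector mice had no overlapping peak in it. The share of all regions absent from it alone was not counted. Nr1d2 (chromosome 14, 18204056 to 18239106, minus strand) had the lowest median H3K9ac of the covered clock genes, with 1048 and 885 bp with control vector against 1759 and 1516 bp with the knockdown. In untreated knockdown mice Per2, Per3 and Npas2 were narrower (1522, 1602 and 1667 bp). The control-vector lists held no H3K9ac before the Nr1d2 start, whereas both knockdown lists had peaks there (18239156 to 18239382 and 18239489 to 18239687 untreated, 18239352 to 18239786 with ethanol). H3K27ac at Nr1d2 covered 1855, 1856, 1638 and 2078 bp. It formed 1 peak across the start except in untreated knockdown mice, where it was split into 3 peaks, the widest of 588 bp. The top H3K27ac peak of Nr1d2 stood at percentiles 99.7, 99.9, 99.8 and 99.6 of the 4 lists by score, while its covered width stood at percentiles 72.1, 74.1, 59.6 and 71.1 of covered genes.

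Dbp (chromosome 7, 45705100 to 45710203, plus strand), the output factor and a direct target of CLOCK and ARNTL, had 4073 H3K9ac-covered bp without ethanol and 2607 bp with ethanol in control-vector mice, and 3844 and 3849 bp in the knockdown. The ethanol list with control vector stood alone below the other 3, which lay within 229 bp. Its promoter end held 3298, 2607, 3040 and 2932 bp and its far end 775, 0, 804 and 917 bp. The far-end coverage belonged mostly to 1 region in the later part of the gene (45707883 to 45709213), which in full held 910 H3K9ac-covered bp untreated, 0 with ethanol, and 1101 and 1223 bp in the knockdown lists. H3K27ac covered that part in all 4 lists, within a region of 5099 bp (45705073 to 45710171) that had 4424, 4531, 4890 and 4680 covered bp. At the Dbp ends H3K27ac covered 5065, 5300, 5759 and 6424 bp.

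**Figure D2:**
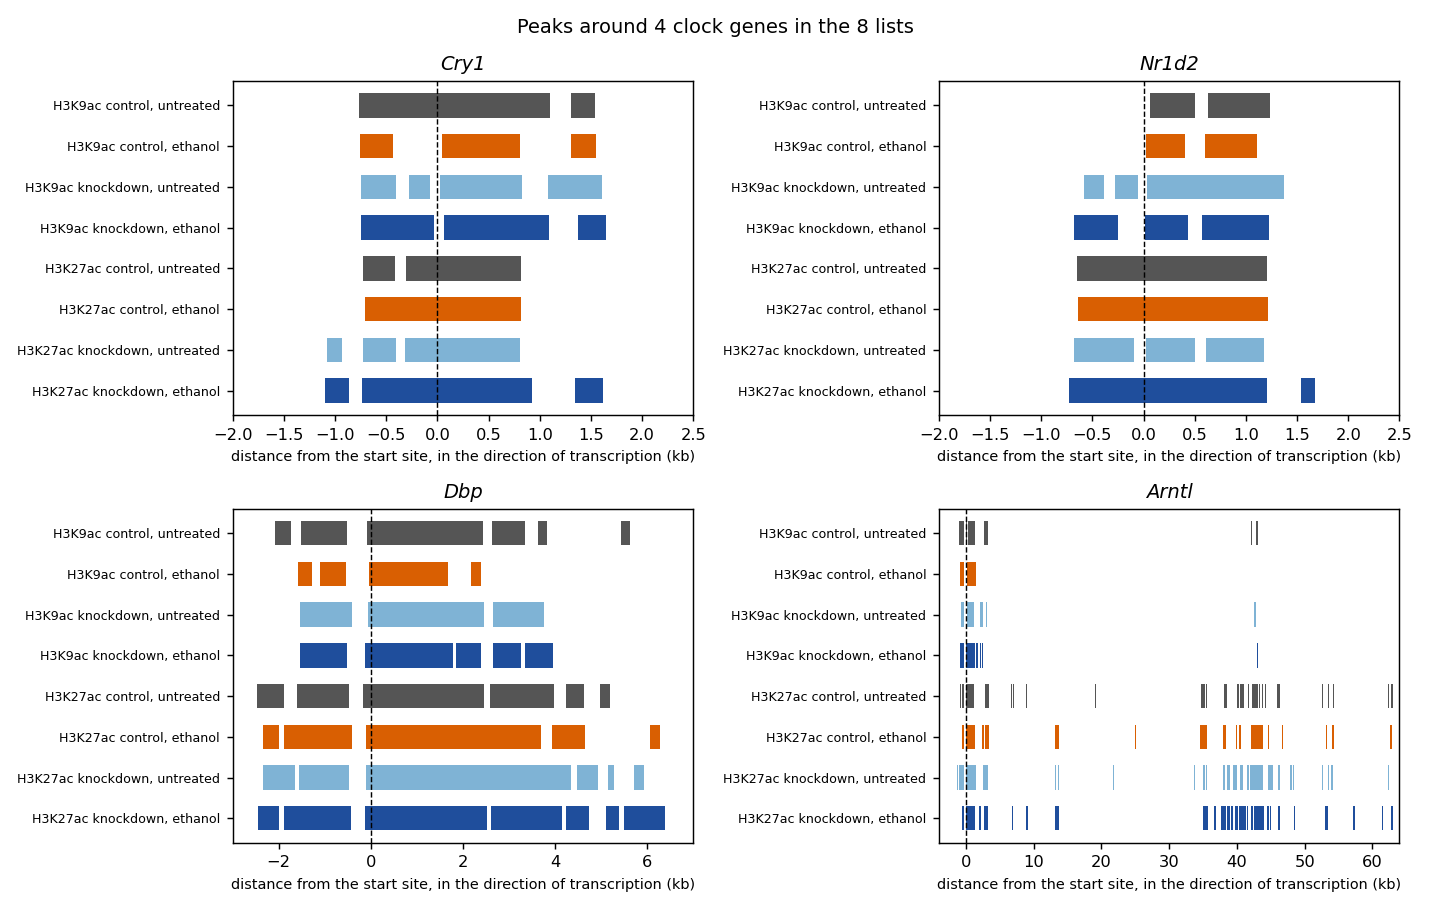
Peaks (bars, width to scale) around Cry1, Nr1d2, Dbp and Arntl in the 8 lists, by distance from the RefSeq start in the direction of transcription (kb); the dashed line is the start and rows are mark and condition. H3K9ac over the Cry1 start is unbroken in untreated control-vector mice alone, peaks before the Nr1d2 start appear for H3K9ac in the knockdown rows, the later part of Dbp lacks H3K9ac in the control-vector ethanol row, and the H3K27ac cluster of Arntl lies far after its start.

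Regions shared by all conditions were commoner near gene ends than inside genes at these loci, as in the genome as a whole. Merging the 4 lists of a mark gave 87 H3K9ac regions, of which 30 were in all 4 lists (34.5%) and 34 in 1 (39.1%), and 158 H3K27ac regions, with 59 (37.3%) and 58 (36.7%). Genome-wide these shares were 36.8% and 42% for H3K9ac and 27.1% and 44.3% for H3K27ac. At gene ends 17 of 35 H3K9ac regions (48.6%) and 24 of 38 H3K27ac regions (63.2%) were in all 4 lists, where the shares over all protein-coding genes were 60.2% and 55.2%. Inside the genes it was 2 of 28 (7.14%) and 16 of 77 (20.8%), where they were 14.2% and 19.1%. Both of these H3K9ac regions lie at the listed Arntl starts (113206469 to 113207136 and 113207471 to 113208872), which the gene-end windows miss. The 16 H3K27ac regions likewise include those at the Arntl starts (113206413 to 113207207 and 113207457 to 113208879). Of the H3K9ac peaks at the loci 83.9% to 92.2% had an H3K27ac peak over them in that condition, and of the H3K27ac peaks 34.2% to 39.3% overlapped an H3K9ac peak. The same shares over all peaks were not counted, so these values cannot be called particular to the clock loci. Away from the gene ends, H3K27ac covered 43903 and 42673 bp in the control-vector lists and 51266 and 55784 bp in the knockdown lists. H3K9ac covered 18735, 14779, 21295 and 22350 bp there. These totals leave out only the windows at each gene's own ends. They thus include the Arntl promoter and peaks at neighbouring genes, such as Rpl31 beside Npas2 and Car11 beside Dbp. The whole lists covered 40.1, 38.1, 47.8 and 57.4 Mb for H3K27ac and 22.6, 16.1, 21.7 and 24.1 Mb for H3K9ac, in the same order.

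Around the starts of the 9 genes in the promoter table, mean coverage reached farther into the gene than for other genes with a peak within 2 kb. In untreated control-vector mice 49.9% of the stretch from 1 to 2 kb after the start was in H3K9ac peaks for the clock genes, against 20.1% over 10466 genes. For H3K27ac it was 41.4% against 18.1%. These means rested largely on Cry2, Nr1d1 and Dbp. In that stretch they had 1000, 679 and 1000 H3K9ac-covered bp and 1000, 715 and 1000 H3K27ac-covered bp. Npas2 had 0 bp for both marks. Clock, Arntl, Per3, Cry1 and Nr1d2 had 241 to 476 bp for H3K9ac and 0 to 367 bp for H3K27ac. In the 250 bp before the start, where regulatory elements concentrate, the H3K9ac shares were 45.5% and 50.8%, and with ethanol in control-vector mice 27.4% and 39.0%. The H3K27ac shares there hardly moved between those lists, 60.5% and 60.8% for the clock genes and 55.9% and 55.6% for other genes. The start itself lay in an H3K9ac peak for 4, 3, 4 and 5 of the 9 genes, where 54.9%, 40.1%, 49.2% and 52.7% of all genes with a peak within 2 kb had it so. It lay in an H3K27ac peak for 6, 7, 5 and 7, against 60.1%, 60.9%, 65.5% and 69.9%, so these counts are near the background.

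**Figure D3:**
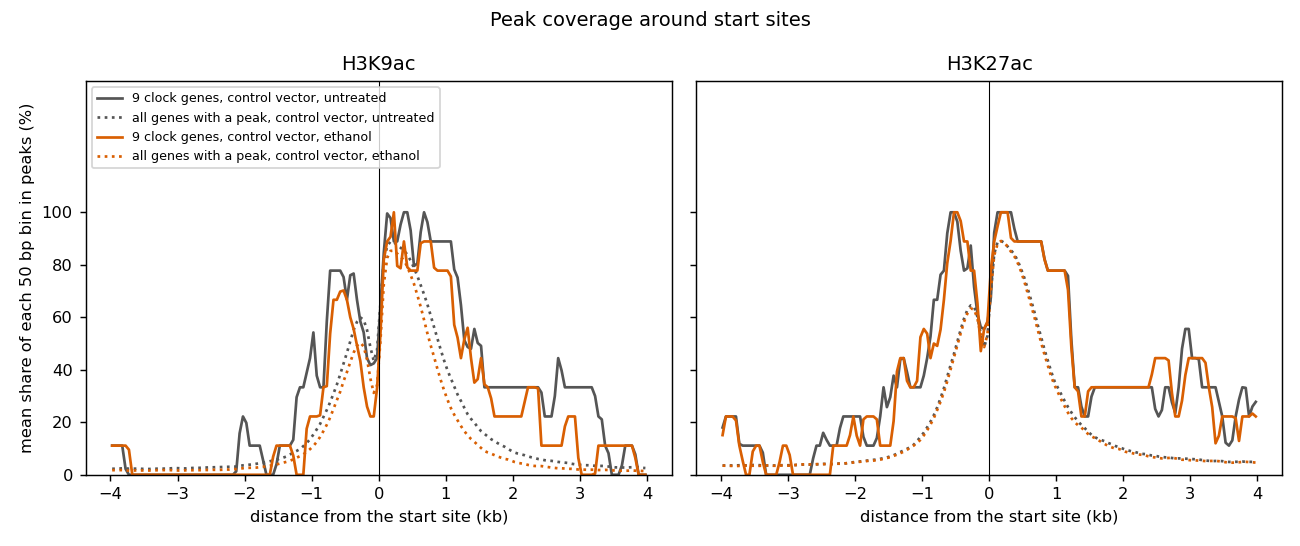
Mean share (%) of each 50 bp bin inside peaks against distance from the start site (kb, negative before it) in the control-vector lists; solid lines are the 9 clock genes with a listed start, dotted lines all genes with a peak within 2 kb. Both marks dip at the start, and the solid lines stay above the dotted ones from 1 to 2 kb after it, where the untreated H3K9ac shares averaged 49.9% and 20.1%.

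The first comparison, ethanol against no treatment with the control vector, showed less H3K9ac at every covered clock gene, as at most genes. All 9 covered genes had fewer bases, where 86.0% of 13436 covered genes did. A gene was called lower or higher where its covered bases differed by at least 1.5 times and 200 bp. Cry1 (-779 bp, 0.63 times), Nr1d1 (-951 bp, 0.648 times) and Dbp (-1466 bp, 0.64 times) were called lower and none higher, 3 of 9 where 27.4% of all genes were lower and 1.02% higher. The sum over the clock genes changed by -25.3% and that over all genes by -22.4%, so the share of genes and the size of the change were near the background. The median differences were -456 and -278 bp. When both lists were cut by score to cover equally many bases, 6 of the 9 had fewer bases, where 60.8% of all genes did. Cry1 then went from 1870 to 1329 bp and Dbp from 3341 to 2607 bp, neither past the fold, and Nr1d1 turned from lower to 173 bp higher. For H3K27ac 4 of 9 had fewer bases and 5 more (54.2% and 45.7% of all genes), and none was called (5.04% lower and 5.20% higher). The largest H3K27ac difference was at Nr1d1 (-977 bp), followed by Per2 (-566 bp) and Per3 (-427 bp).

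With the knockdown, ethanol went with small H3K9ac differences of both signs. Fewer bases were found at 3 genes and more at 6 (37.4% and 62.4% of all genes), and none was called (3.34% lower, 9.94% higher). The largest differences were at Cry2 (575 bp), Per2 (567 bp) and Per3 (431 bp), and Dbp was nearly level (5 bp). At Cry2 most of it lay at the end facing Mapk8ip1 (32 to 524 bp), and at Per2 the end by Hes6 went from 0 to 262 bp. For H3K27ac 2 genes had fewer bases and 7 more (30.5% and 69.4%), and none was called (1.90% lower, 9.88% higher). The H3K27ac gains were widest at Nr1d1 (1576 bp) and Cry2 (1502 bp), and the sum over the clock genes changed by 19.4%, against 10.1% for all genes. Ethanol went with narrower H3K9ac at Cry1, Nr1d1 and Dbp with the control vector and with differences of 136, -112 and 5 bp with the knockdown. These genes were picked by their calls with the control vector. The median H3K9ac differences over all genes were -278 bp with the control vector and 80 bp with the knockdown. Without replicates the difference between the vectors was not tested.

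In untreated mice the knockdown was compared with the control vector. H3K9ac covered fewer bases at 5 and more at 4 clock genes (56.2% and 43.6% of all genes). Nr1d2 alone was called, higher by 711 bp or 1.68 times, where 3.82% of all genes were called higher and 8.71% lower. Cutting both lists to equal coverage left this Nr1d2 difference at 711 bp. H3K27ac covered fewer bases at 5 clock genes and more at 4, where 34.3% of all genes had fewer and 65.6% more. No clock gene was called for H3K27ac (2.17% of genes lower, 9.55% higher), and the largest differences were at Nr1d1 (-1037 bp), Cry2 (-733 bp) and Dbp (694 bp). The sum over the clock genes changed by -2.65% while that over all genes changed by 8.48%. This count depended on the window: it stayed at 5 with 5 kb windows (31.6% of all genes), and was 4 with 1 kb windows (36.2% of all genes), 3 of 10 with whole genes (26.6%) and 4 with start sites only (35.6%).

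In ethanol-treated mice the knockdown went with more H3K9ac at all 9 covered clock genes, where 88.2% of all genes had more and 11.8% fewer. Per2 (832 bp, 1.66 times), Cry1 (686 bp, 1.52 times), Nr1d1 (945 bp, 1.54 times) and Nr1d2 (631 bp, 1.71 times) were called higher, 4 of 9 where 30.0% of all genes were called higher and 0.938% lower. Dbp had the largest difference (1242 bp) at 1.48 times, just under the fold. This comparison uses the same short ethanol list as the first, so its values are not independent of those above. At equal coverage the differences were 75 bp at Per2, 415 bp at Cry1, -299 bp at Nr1d1 and 196 bp at Nr1d2, none past the call rule. H3K27ac covered more bases at 8 of 9 clock genes (82.7% of all genes more, 17.2% fewer), and Npas2 was called higher (918 bp, 1.54 times; 18.5% of genes higher, 1.19% lower). The largest H3K27ac difference was again at Nr1d1 (1516 bp, 1.31 times), and at equal coverage that of Npas2 was 587 bp, short of the fold.

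**Figure D4:**
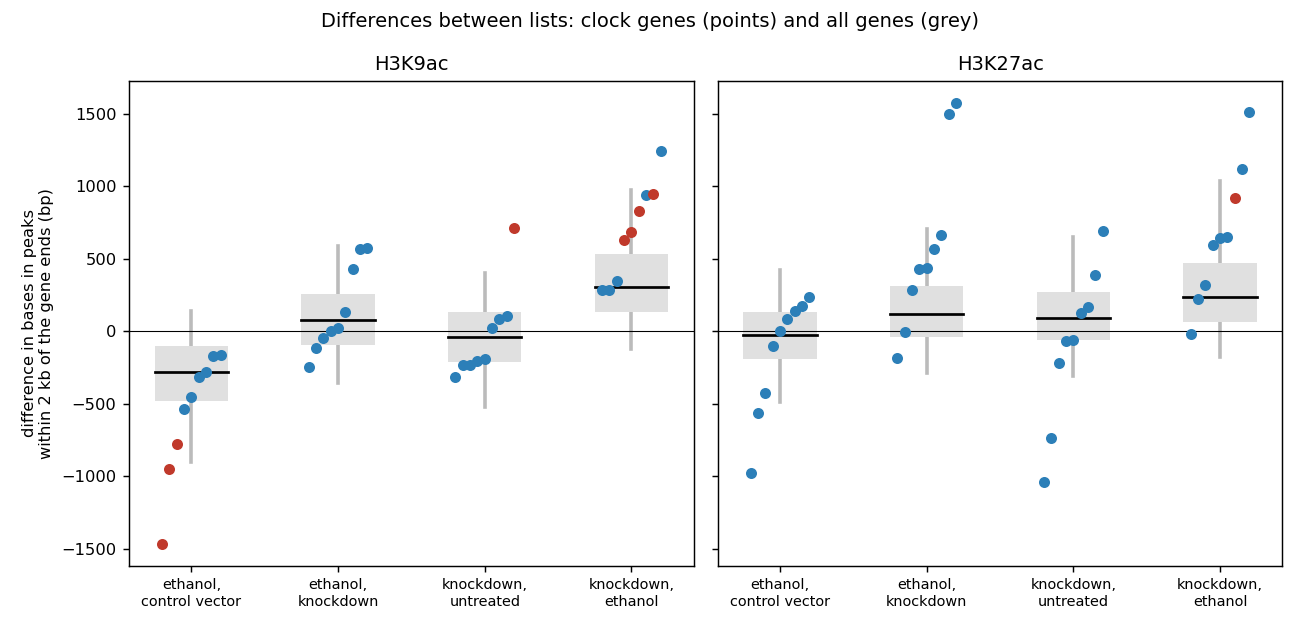
Difference in covered bases near the gene ends (bp, first named condition minus its reference) for the 9 covered clock genes in the 4 comparisons of each mark; red points differ by at least 1.5 times and 200 bp, blue points do not. Grey bars, grey lines and black lines are the quartiles, the 5th to 95th percentiles and the median of all covered genes; the first H3K9ac column lies below 0 for all 9 genes, with a genome median of -278 bp, and the fourth lies above 0, with a median of 309 bp.

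Another 20 genes of the clock pathway were counted in the same way, among them further regulators and kinases. With ethanol and control vector 18 of 20 had fewer H3K9ac-covered bases and 2 more, with 7 called lower and 1 higher, where 86.0% of all genes had fewer, 27.4% were lower and 1.02% higher. Wide differences were found at Rora, an activator of Arntl (2234 to 1086 bp), the repressor gene Bhlhe40 (4240 to 3290 bp) and Rorb (1618 to 799 bp). With the knockdown 6 had fewer with ethanol and 14 more, with 0 called lower and 1 higher, Arntl2 (659 to 1152 bp), where 37.4% of all genes had fewer and 9.94% were called higher. In untreated mice 8 had fewer H3K9ac-covered bases with the knockdown and 12 more (2 called lower, 1 higher), where 56.2% of all genes had fewer, 8.71% were lower and 3.82% higher, and Arntl2 went from 1333 to 659 bp. In ethanol-treated mice 2 had fewer with the knockdown and 18 more (0 called lower, 4 higher), where 88.2% of all genes had more and 30.0% were called higher. Per1, another period gene, went from 1257 to 2369 bp there and Bhlhe40 from 3290 to 4827 bp.

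For H3K27ac the same 20 genes had 12 fewer and 8 more with ethanol and control vector, with 1 called in each direction, where 54.2% of all genes had fewer, 5.04% were lower and 5.20% higher. Hlf, a relative of Dbp, went from 2483 to 1645 bp. With ethanol in the knockdown 19 had more and 1 fewer, with 3 called higher and 1 lower, where 69.4% of all genes had more, 9.88% were higher and 1.90% lower. The widest differences were at Usp2, a deubiquitinase (2156 to 3454 bp), and the repressor gene Ciart (1716 to 2803 bp). The knockdown gave 10 fewer and 10 more in untreated mice (1 called each way), where 34.3% of all genes had fewer, 2.17% were lower and 9.55% higher. Csnk1e, a kinase gene for PER proteins, went from 165 to 652 bp there and Btrc from 1224 to 749 bp. In ethanol-treated mice 18 had more and 2 fewer (3 called higher, 0 lower), where 82.7% of all genes had more and 18.5% were called higher, with Bhlhe40 from 4489 to 5987 bp and Ciart from 1782 to 2803 bp.

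Over the 8 lists the covered clock genes had a median profile of 1.05, 0.76, 1.03 and 1.10 times their own mean for H3K9ac, and 0.99, 0.90, 1.00 and 1.14 times for H3K27ac. The genes nearest to this profile among 12239 covered in all lists were Gucy1b1, Faah and Smad3, at Euclidean distances of 0.058, 0.061 and 0.063. Gucy1b1 had 1687, 1276, 1622 and 1773 H3K9ac-covered bp and 1612, 1444, 1607 and 1779 H3K27ac-covered bp. These profiles share the lengths of the 8 lists with every other gene.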

How the data were processed

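H3K9ac and H3K27ac ChIP-seq of 24 samples and 12 inputs had been reduced by the submitters to 8 peak lists, 1 for each mark and condition. All 3 replicates in a group point to 1 list in the labels, and the way they were combined does not appear in the sources used here. Calling was done against input with an FDR of 0.001, per the labels. Tools named without a role in the submitters' processing notes are MACS2, bedtools, STAR 2.5.2a and bcl2fastq, with the build GRCm38 (mm10). Each deposited peak has a score, taken from its range to be the authors' −log10 of a q-value, which served to rank or filter peaks alone. Read depth is unknown, so no interval could be attached to any value.

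Groups came from the sample labels, and 0 sample columns were left unmapped. Gene ends were taken from a RefSeq gene table of GRCm38.p6, which gives no strand, exons or untranslated regions, and strand and starts from RefSeq promoter entries. Bases inside peaks were counted within 2 kb of both gene ends with Python 3.11.15 and numpy 2.4.6, and figures drawn with matplotlib 3.10.9. The counting was tested on simulated data. All 10 clock genes were described. Of the 20 other pathway genes, up to 4 per comparison were named by the size of their difference, and 1 gene that this would name is not reported here. The 3 genes nearest to the median profile were named as well. Background shares count protein-coding genes with a covered base in at least 1 of the lists compared. With 1 list per group no test was made. Alternatives were windows of 1 and 5 kb, whole genes with 10 kb flanks, start sites, a score of at least 5, lists of equal length or coverage, differences under 200 bp as no change, and a stricter peak overlap. The genes and lists were chosen with earlier results of these data known.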

Additional observations from a re-analysis of the deposited data

How the results depend on the processing

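The number of clock genes with fewer covered bases was recomputed under 8 settings in each of 8 comparisons. Of these 64 values, 44 stayed within 1.5 times of the reported count without turning its balance, 14 moved and 6 turned the balance between fewer and more. With ethanol and control vector, fewer H3K9ac bases were found at 6 to 9 of the 9 or 10 genes measured under these 8 settings. The share of all genes with fewer ran from 60.8% to 89.6%. Percentages below are also of all genes with fewer bases. For H3K9ac with ethanol in the knockdown the count of 3 (37.4%) became 5 of 10 with whole genes (34.9%). It became 1 when differences under 200 bp were set aside (13.6%). For H3K9ac with the knockdown in untreated mice 5 became 4 with 5 kb windows (56.2% in both). In ethanol-treated mice 0 (11.8%) became 1 with lists of equal coverage (39.7%). For H3K27ac with ethanol and control vector 4 (54.2%) became 5 with 1 kb windows (53.5%) and 3 without differences under 200 bp (24%). For H3K27ac with ethanol in the knockdown 2 (30.5%) became 1 with 1 kb windows (33.4%), whole genes (21.6%) or start sites (31.7%). It became 0 with 5 kb windows (26.7%) or without differences under 200 bp (9.31%). For H3K27ac with the knockdown in untreated mice 5 (34.3%) became 4 with 1 kb windows (36.2%) or start sites (35.6%). It became 3 with whole genes (26.6%) or without differences under 200 bp (10.7%). In ethanol-treated mice the H3K27ac count of 1 (17.2%) became 2 with 1 kb windows (20.4%) or equal coverage (35.7%). It became 0 with 5 kb windows (14.3%), whole genes (11.1%) or without differences under 200 bp (4.31%). The cause was not tested. The count of shared peaks stayed within 1.5 times in all 8 comparisons under the stricter overlap. No paired analysis was possible because each group has 1 list and its columns carry no replicate number, and for the same reason no replicate could be left out. Depth limits every comparison, since it is unknown and lists from more reads can hold more and wider peaks.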

Other observations

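At the clock gene loci, peaks were both lost and gained in each comparison of ethanol with no treatment, counted by an overlap of at least 1 base. With ethanol and control vector 22 of 56 H3K9ac peaks of untreated mice had no overlapping peak with ethanol and 10 of 51 ethanol peaks had none untreated, which is 39.3% and 19.6%, where 38% and 11.7% of all peaks of these lists did. For H3K27ac these were 32 of 127 and 27 of 114, or 25.2% and 23.7%, against 34.5% and 30.5% of all peaks. With ethanol in the knockdown 14 of 64 H3K9ac peaks were lost and 17 of 72 gained, or 21.9% and 23.6%, against 21.3% and 31.6% of all peaks. For H3K27ac 27 of 126 were lost and 38 of 135 gained, or 21.4% and 28.1%, against 23.8% and 38.6%.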
